A study of Mus musculus with 29 samples.

Results

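Genes of the oligodendrocyte precursor cell (OPC) and of the newly formed oligodendrocyte were followed in the brain of wildtype and immunodeficient mice with and without a cortical stroke. The set was given by name as 8 genes (Pdgfra, Cspg4, Olig1, Olig2, Sox10, Gpr17, Bcas1 and Enpp6) of the 25746 genes in the deposited count tables. All 8 genes had enough reads to be tested, among 17031 genes that passed the filter on low counts.

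The study induced a photothrombotic stroke (a light-activated dye clots the vessels) in the right sensorimotor cortex and profiled RNA of 29 samples. The 18 stroked samples were taken at 21 days post injury (dpi). Mice were young adults of both sexes according to the study's methods. The 3 non-stroked groups were C57BL/6 wildtype (WT, n = 4), Rag2-/- (n = 3) and NSG mice (n = 4). The 5 stroked groups were WT (n = 4), WT-Tacr acute (n = 3), WT-Tacr delayed (n = 5), Rag2-/- (n = 3) and NSG mice (n = 3). Rag2-/- mice cannot rearrange antigen receptors and so lack mature T and B cells. NSG mice (NOD scid gamma) have the NOD background, a defective Prkdc gene and no functional interleukin-2 receptor gamma chain, and so lack T, B and natural killer cells. NSG mice therefore differ from C57BL/6 mice in background as well as in immune cells, and the effects of the 2 cannot be told apart here. WT-Tacr mice were C57BL/6 mice that received tacrolimus, a calcineurin inhibitor, from a subcutaneous osmotic pump. The pump was started on the day of stroke (acute) or a week later (delayed). No tacrolimus-treated mice without stroke are among the samples, so each WT-Tacr group was compared with the same 4 non-stroked WT samples that served the untreated WT. The study's methods name the contralesional site as the source of control RNA, while its results speak of mice that were not stroked. The control groups are called non-stroked or at rest here, whichever of these they were.

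OPCs are the dividing glial cells of the adult brain from which myelin-forming oligodendrocytes arise. They carry the PDGF receptor alpha (Pdgfra) and the proteoglycan NG2 (Cspg4) on their surface, and the transcription factors Olig1, Olig2 and Sox10 specify the lineage and remain on as it matures. When an OPC commits to differentiate it loses Pdgfra and Cspg4. The receptor Gpr17, the actin-associated Bcas1 and the choline phosphodiesterase Enpp6 mark steps on its way to myelin. OPCs are known to divide and gather around cortical injuries, and Pdgfra and Cspg4 are also made by fibroblasts and by pericytes, respectively.

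Of the 3 genes that differed between non-stroked NSG and WT mice, promoter sequence is printed for Pdgfra and Enpp6, and Gpr17 was left out. Among those that rose after stroke in NSG mice, promoter sequence was at hand for Olig2. These promoters are printed because their genes carry the differences described below. They hold the 250 bases before the RefSeq start on the reference C57BL/6J assembly GRCm38.p6, 5′ to 3′, and the bases of NOD mice may differ. Capitals mark matches to the core of a SOX site (ACAAAG or ACAATG) or of an E-box (CANNTG), the motif of basic helix-loop-helix factors such as Olig1 and Olig2, searched on both strands.
Pdgfra: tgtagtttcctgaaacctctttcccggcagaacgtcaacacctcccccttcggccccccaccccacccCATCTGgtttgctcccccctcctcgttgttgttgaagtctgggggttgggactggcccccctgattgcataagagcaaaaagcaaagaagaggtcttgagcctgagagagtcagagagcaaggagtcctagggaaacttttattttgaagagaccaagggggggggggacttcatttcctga
Enpp6: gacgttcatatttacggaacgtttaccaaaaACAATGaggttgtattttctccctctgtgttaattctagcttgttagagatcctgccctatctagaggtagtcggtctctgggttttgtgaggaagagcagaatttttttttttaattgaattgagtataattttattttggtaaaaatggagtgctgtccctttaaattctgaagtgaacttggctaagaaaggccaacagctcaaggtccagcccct
Olig2: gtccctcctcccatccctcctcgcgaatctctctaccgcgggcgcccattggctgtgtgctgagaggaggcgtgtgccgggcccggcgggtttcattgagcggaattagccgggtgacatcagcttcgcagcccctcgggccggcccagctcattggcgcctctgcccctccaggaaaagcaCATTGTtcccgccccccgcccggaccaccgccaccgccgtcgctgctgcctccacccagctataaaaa
The window of Pdgfra (chr5:75152001-75152250, plus strand) held 1 E-box and 4 CpG dinucleotides. Those of Enpp6 (chr8:46986637-46986886, plus strand) and Olig2 (chr16:91225300-91225549, plus strand) held 1 SOX core each, with 4 and 22 CpG dinucleotides. Among 32851 mouse promoter windows of this length, 25.2% held a SOX core and 66.2% an E-box, so neither motif sets these genes apart.

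In the GENCODE M21 annotation of GRCm38, Olig2 (chr16:91225457-91228677) and Olig1 (chr16:91269772-91271933) are neighbours on the plus strand with 41094 bp between them. Pdgfra lies at chr5:75152292-75198215 and Cspg4 at chr9:56865033-56899870, both on the plus strand. Sox10 lies at chr15:79154908-79165240 and Bcas1 at chr2:170346991-170427845, both on the minus strand, and Enpp6 spans chr8:46986887-47096762 on the plus strand. Gpr17 lies inside Lims2, a protein-coding gene of the opposite strand. The libraries were made with a stranded kit but it is not stated that the counting used strand, so reads of Gpr17 and Lims2 may not have been kept apart, and Lims2 is given beside Gpr17.

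Levels are given as CPM, the counts of a gene relative to the library size after scaling by edgeR's TMM factors. Corrected for transcript length, the order in non-stroked WT mice was Bcas1 (60.9 CPM per kb), Olig1 (43.3), Sox10 (24.0), Gpr17 (12), Olig2 (11.6), Pdgfra (5.48), Cspg4 (2.41) and Enpp6 (1.65). Library totals ranged from 17789044 to 43403413 counts. Sample titles begin with Imm2 (20 samples) or TF (9 samples), called cohorts here, with median totals of 37223696 and 23155303 counts. All non-stroked, all Rag2-/- and all NSG samples were Imm2, whereas stroked WT had 2 samples of each cohort, WT-Tacr acute had 1 Imm2 and 2 TF samples and WT-Tacr delayed had 5 TF samples. Transcripts of the Y-linked gene Ddx3y were present (1225 counts or more) in 15 of 20 Imm2 samples and in 0 of 9 TF samples (at most 2 counts), so cohort and sex could not be separated within the WT groups. Rag2 had at most 2 counts in any sample and so could not check the genotypes. B230118H07Rik, chosen after its values were seen, had 0 to 4 counts in all Rag2-/- samples and at least 274 in every other sample. Il2rg, the gamma chain gene disrupted in NSG mice, had 31 to 37 counts in stroked NSG and 85 to 110 in stroked Rag2-/- samples. It had 58 to 137 in stroked WT, 67 to 152 in WT-Tacr delayed and 26 to 94 in WT-Tacr acute samples, the last taking in the stroked NSG range. At rest the Il2rg counts overlapped (22 to 36 in NSG, 27 to 32 in WT and 21 to 35 in Rag2-/- samples), so Il2rg could not check the non-stroked labels. Nothing in the labels says in words that each sample is a separate mouse, so p-values measure the spread between these samples.

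The first question was whether the strains differ among the non-stroked groups. Pdgfra, Gpr17 and Enpp6 were higher in non-stroked NSG mice than in non-stroked WT mice, by 1.4- to 1.6-fold, while Cspg4, Olig1, Olig2, Sox10 and Bcas1 showed no called difference. A gene is called where its adjusted p (edgeR's quasi-likelihood test, Benjamini-Hochberg over all 17031 genes) is under 0.05. The 3 called genes compare with 9.76% of all genes called in this comparison. In these bulk samples a change in the number of cells and a change in RNA per cell cannot be told apart.

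Gpr17, the receptor of committed precursors, stood at 106.9, 104.7, 103.5 and 94.9 CPM in the 4 non-stroked NSG samples. It stood at 63.2, 55.7, 61.3 and 69.2 CPM in non-stroked WT and at 70.1, 77.0 and 67.2 CPM in non-stroked Rag2-/- samples. Every NSG value lay above every WT and Rag2-/- value. The log2 difference from WT was 0.72 ± 0.12 (SE; adjusted p = 0.000197) and that from Rag2-/- was 0.52 ± 0.13 (adjusted p = 0.0149). Lims2, on the other strand, ranged from 13.4 to 18.3 CPM in NSG and from 11.6 to 12.7 CPM in WT (log2 difference 0.38 ± 0.13, adjusted p = 0.0625), a smaller difference than that of Gpr17 and at a lower level.

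Pdgfra, the receptor through which PDGF-A drives OPC division, was 78.2, 70.8, 86.6 and 70.2 CPM in non-stroked NSG samples. The values were 55.2, 53.2, 57.5 and 53.9 CPM in WT and 53.4, 60.1 and 52.6 CPM in Rag2-/- samples. Again the NSG samples did not overlap with either strain. The log2 difference was 0.48 ± 0.11 from WT (adjusted p = 0.00658) and 0.47 ± 0.12 from Rag2-/- (adjusted p = 0.0203). Its ligands were not called: Pdgfa differed from WT by 0.08 ± 0.09 (adjusted p = 0.690) and Pdgfc by 0.34 ± 0.15 (adjusted p = 0.184) on the log2 scale.

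Enpp6, a marker of the newly formed oligodendrocyte, was 20.04, 18.3, 12.9 and 16.8 CPM in non-stroked NSG mice. It was 11.9, 10.9, 10.02 and 9.48 CPM in WT and 11.3, 11.5 and 12.01 CPM in Rag2-/- mice. The NSG values were all higher, although NSG replicate 3 came close to the Rag2-/- range. The log2 difference from WT was 0.69 ± 0.16 (adjusted p = 0.00520), and that from Rag2-/- was 0.55 ± 0.17 and missed the threshold (adjusted p = 0.0563).

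The other 5 genes spread around equality between non-stroked NSG and WT mice. Cspg4, the NG2 proteoglycan, averaged 29.3 ± 3.16 CPM (SD, n = 4) in NSG and 28.7 ± 4.56 CPM (SD, n = 4) in WT mice, with a log2 difference of 0.03 and a 95% interval from -0.28 to 0.34. The lineage factors Olig1 (0.20, interval -0.12 to 0.52) and Olig2 (0.17, interval -0.19 to 0.52) were a little higher on average but overlapped. Sox10 differed by -0.01 (interval -0.33 to 0.31) and Bcas1 by 0.03 (interval -0.41 to 0.48). Pdgfra and Cspg4, both surface markers of OPCs, thus had different results at rest: a difference as large as that of Pdgfra (0.48) lay outside the interval of Cspg4.

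Between non-stroked Rag2-/- and WT mice 0 of 8 genes were called, where 0.00587% of all genes were. DESeq2 also called 0, and 0 of 8 had an unadjusted p under 0.05. Log2 differences ranged from -0.08 for Sox10 to 0.20 for Gpr17. Between NSG and Rag2-/- mice 2 of 8 were called, Pdgfra and Gpr17, against 6.33% of all genes. By separation of samples, 3 of 8 genes did not overlap between NSG and WT (21.8% of all genes), 3 of 8 between NSG and Rag2-/- (24.3% of all genes) and 0 of 8 between Rag2-/- and WT (9.44% of all genes).

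The 3 NSG differences from WT remained called with each of the 8 samples left out in turn. Those from Rag2-/- were less firm. Pdgfra lost its call without Rag2-/- replicate 1 (adjusted p = 0.0945), Rag2-/- replicate 4 (0.112) or NSG replicate 3 (0.0850), and Gpr17 without Rag2-/- replicate 1 (0.0671) or 4 (0.0931). All 4 non-stroked NSG and all 4 non-stroked WT samples carried Ddx3y, but 1 of 3 non-stroked Rag2-/- samples did. With its presence as a covariate the differences between NSG and Rag2-/- were 0.52 for Pdgfra (adjusted p = 0.0159) and 0.65 for Gpr17 (adjusted p = 0.00247). The covariate was fitted over all samples, the TF samples without Ddx3y among them, so it did not adjust for sex alone. Summed markers of subcortical tissue (6 genes, among them Th, Drd1 and Six3) ranged from 61.5 to 209.3 CPM in non-stroked NSG and from 33.5 to 65.7 CPM in WT samples. The 6 include Tcf7l2, which is also on the list of other committed and newly formed oligodendrocyte genes used below. Summed myelin genes (14 genes) ranged from 4721 to 7924 CPM and from 4750 to 6372 CPM. The part of either in the differences was not tested.

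**Figure D1:**
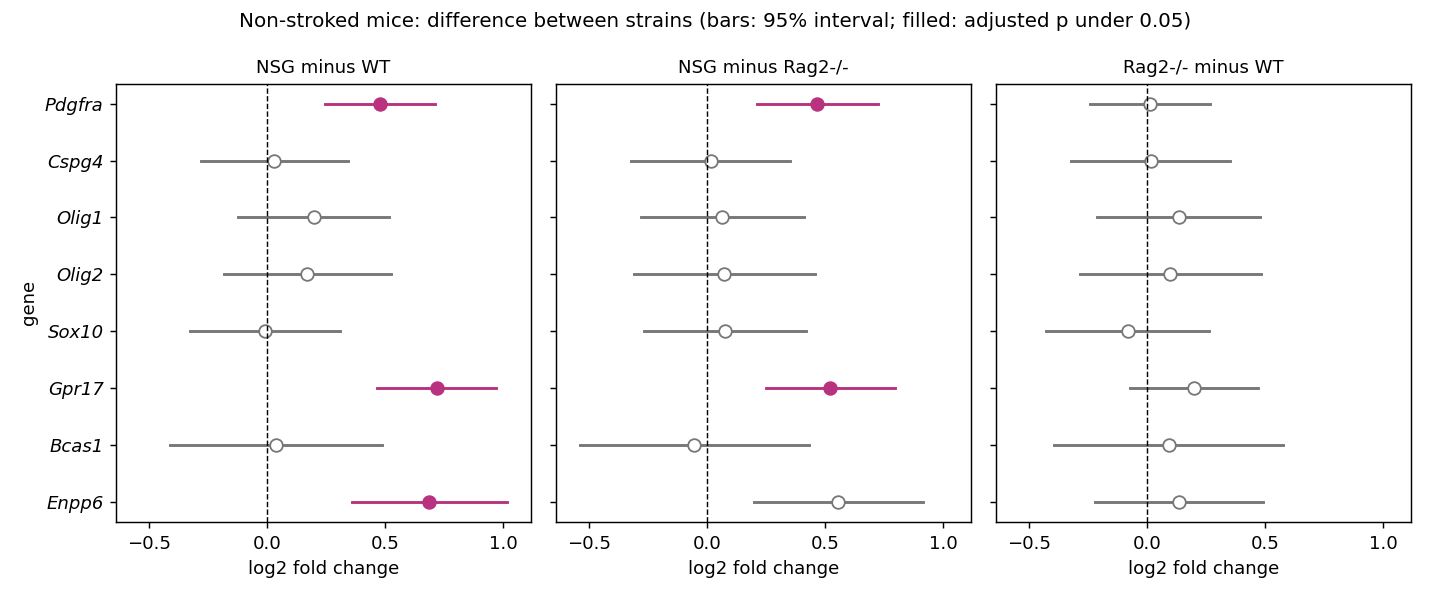
Log2 difference (x axis) of the 8 genes (y axis) between non-stroked mice of 2 strains, in 3 panels. Points are edgeR estimates, bars 95% intervals and filled points adjusted p under 0.05; Pdgfra, Gpr17 and Enpp6 lie to the right of 0 in both NSG panels, with Enpp6 unfilled against Rag2-/-.

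Other genes of OPCs, from a list of 15, were mostly not called in non-stroked NSG mice. Against WT, 2 of 15 were higher: Neu4, a sialidase (0.64 ± 0.12, adjusted p = 0.000829), and Matn4, a matrix protein (0.72 ± 0.19, adjusted p = 0.0121). Matn4 was also higher than in Rag2-/- mice (0.67 ± 0.20, adjusted p = 0.0467). The median log2 difference from WT of the 15 genes was 0.26, beside 0.01 over all genes. By edgeR, 0 of 11 other committed or newly formed genes and 0 of 14 mature myelin genes were called between strains at rest, with 4 and 2 at an unadjusted p under 0.05 between NSG and WT mice. Among 10 ligands that act on OPCs, 1 was called in each NSG comparison. Bmp7, a bone morphogenetic protein, was higher than in WT (0.72 ± 0.20, adjusted p = 0.0207), and the mitogen Fgf2 was higher than in Rag2-/- mice (0.73 ± 0.22, adjusted p = 0.0490). Of all genes 9.76% were called between NSG and WT and 6.33% between NSG and Rag2-/- mice. The counts in these lists do not stand out from this background.

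**Figure D2:**
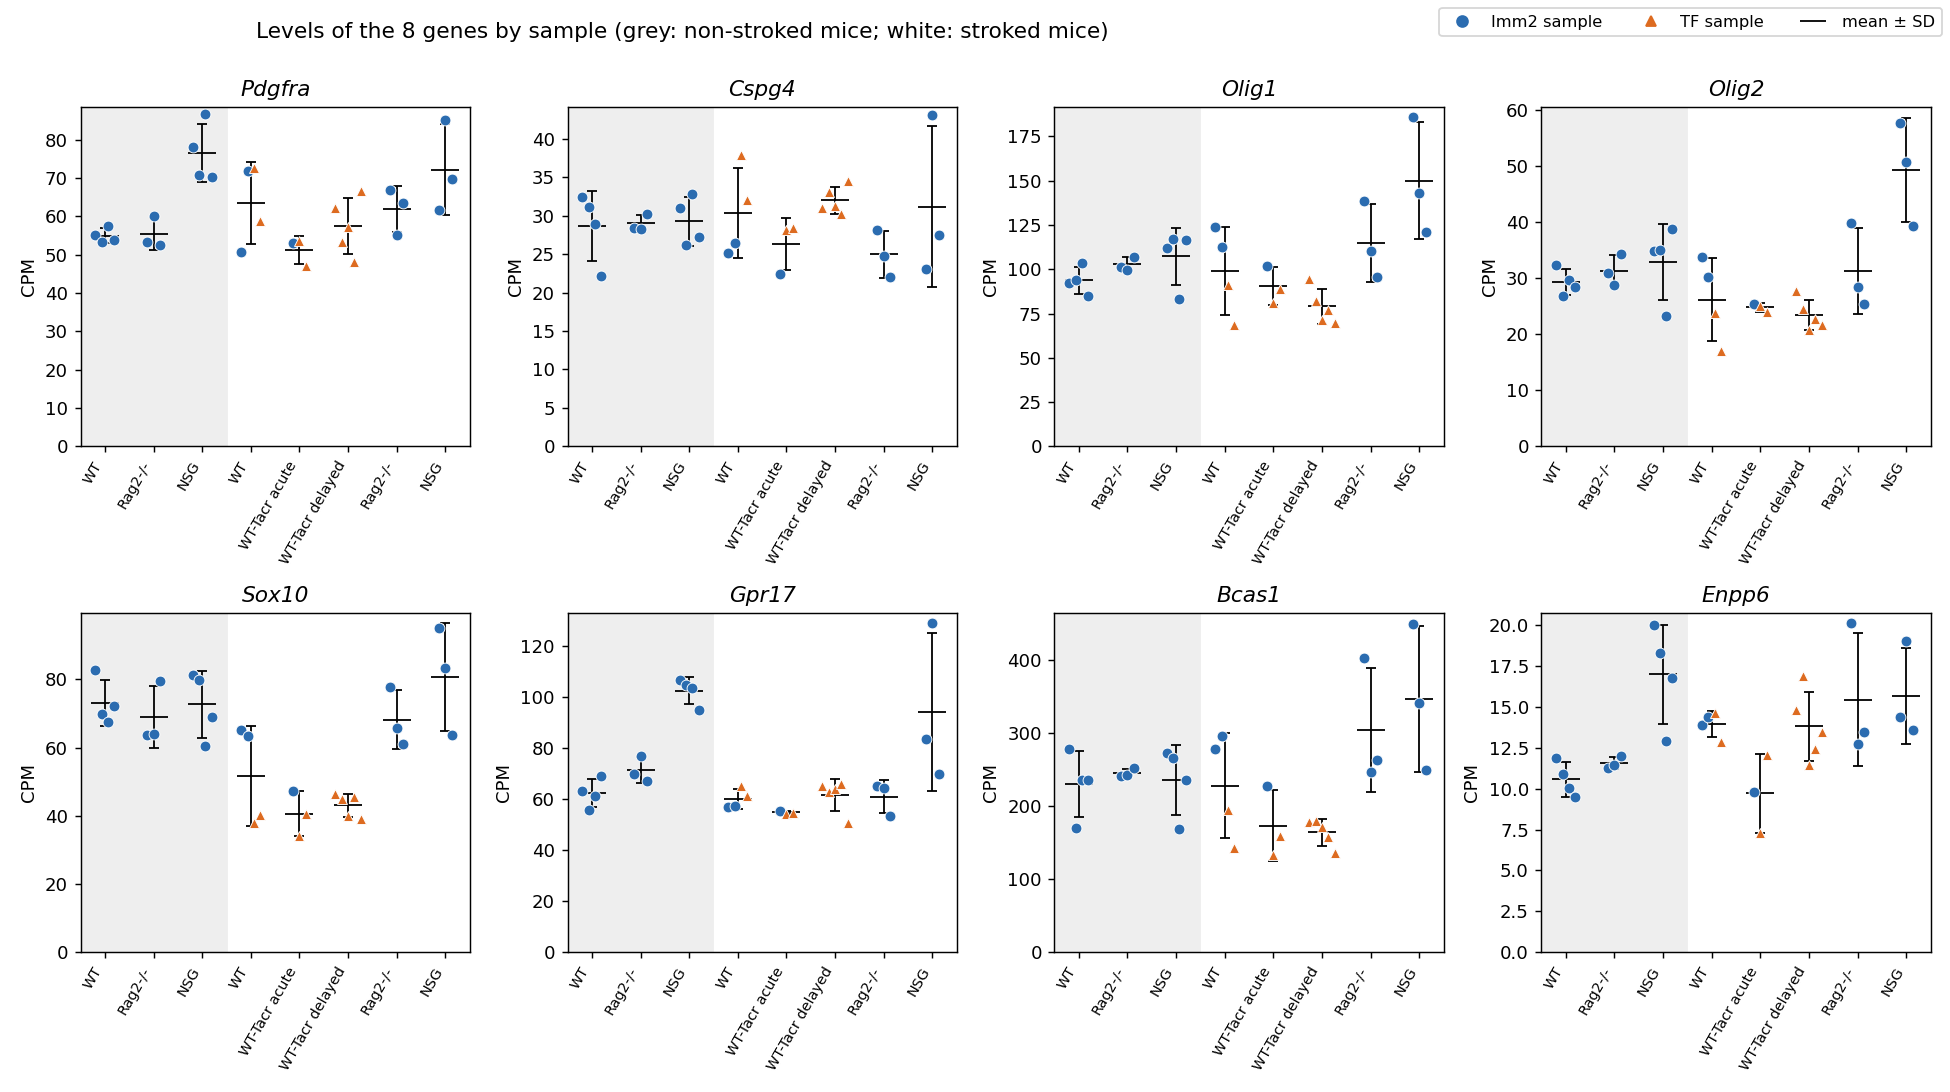
CPM (y axis) of each gene in every sample by group (x axis), with non-stroked groups on grey. Circles are Imm2 and triangles TF samples, and black marks give the mean ± SD. Gpr17 and Pdgfra are highest in NSG mice, and all TF triangles of Sox10 lie under 46.3 CPM, below every Imm2 circle.

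The second question was how the genes respond to stroke within each strain. Most of the 8 genes showed no called change at 21 dpi. The share called among the 8 was 1 in WT, 1 in WT-Tacr acute, 3 in WT-Tacr delayed, 0 in Rag2-/- and 2 in NSG mice. Over all genes 26.9%, 8.54%, 55.2%, 8.23% and 21.9% were called in the same order, so the counts among the 8 do not stand out from this background. By separation, 2, 3, 1, 3 and 2 of the 8 did not overlap between stroked and non-stroked samples, where 29.8%, 19.6%, 54.0%, 35.7% and 25.0% of all genes did not.

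The surface markers of OPCs were not called in any stroked group. Pdgfra in stroked WT samples was 50.7, 71.9, 72.6 and 58.7 CPM, a range that took in the non-stroked values, with a log2 change of 0.21 (interval -0.03 to 0.44, adjusted p = 0.179). Its change was -0.10 in WT-Tacr acute, 0.06 in WT-Tacr delayed, 0.16 in Rag2-/- and -0.08 in NSG mice, with no call. Cspg4 was 25.2, 26.4, 37.9 and 32.1 CPM in stroked WT samples (log2 change 0.08, interval -0.23 to 0.39), and its changes in the other groups ran from -0.21 in Rag2-/- to 0.16 in WT-Tacr delayed mice. The stroked Rag2-/- samples, at 28.1, 24.8 and 22.1 CPM, lay just below the non-stroked ones at 28.5, 28.3 and 30.2 CPM. Summed fibroblast genes (6 genes) went from 59.2 to 73.7 CPM in non-stroked WT up to 294.4 to 658.7 CPM in stroked WT samples, and 5 of the 6 were called, led by the proteoglycan Lum (log2 change 4.20 ± 0.68, adjusted p = 0.000114). Summed pericyte and smooth muscle genes (8 genes) ranged from 178.3 to 210.0 CPM and from 164.3 to 217.6 CPM, with 1 of 8 called. How much of the Pdgfra or Cspg4 signal came from such cells was not tested.

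Sox10, the lineage factor that switches on myelin genes, was the only one of the 8 called in stroked WT mice. Its stroked WT values were 65.2 and 63.4 CPM in the Imm2 samples and 37.9 and 40.4 CPM in the TF samples, against 82.9, 69.9, 67.6 and 72.3 CPM in non-stroked WT. All 4 stroked values were lower than all non-stroked ones. The log2 change was -0.50 ± 0.16 (adjusted p = 0.0200). In WT-Tacr acute samples Sox10 was 47.3 CPM (Imm2), 34.2 and 40.5 CPM (TF), a log2 change of -0.85 ± 0.17 (adjusted p = 0.00619). In WT-Tacr delayed samples it was 46.3, 44.95, 40.1, 45.5 and 39.0 CPM, a log2 change of -0.76 ± 0.15 (adjusted p = 0.000146). These 3 comparisons share their non-stroked samples.

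The Sox10 values followed the cohort. Across all groups they ran from 34.2 to 46.3 CPM in the 9 TF samples and from 47.3 to 94.9 CPM in the 20 Imm2 samples, with no overlap, as 5.93% of all genes had none between cohorts. With cohort as a covariate the WT change was -0.26 (adjusted p = 0.219), and among Imm2 samples alone it was -0.18 (adjusted p = 0.511). The acute change was -0.48 (adjusted p = 0.246) and -0.62 (adjusted p = 0.503) under the same alternatives, the latter resting on 1 acute sample, and the delayed change was -0.19 with cohort as a covariate (adjusted p = 0.535). No Sox10 call in WT or WT-Tacr mice was thus left once cohort was accounted for. In WT it was also lost without stroked WT replicate 3 (adjusted p = 0.0928), replicate 4 (0.0934) or non-stroked WT replicate 1 (0.0702), in the fit of these groups alone (0.0569) and with presence of Ddx3y as a covariate (0.0617). Without acute replicate 3 the acute call was lost too (0.0779).

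In the strains with Imm2 samples alone, Sox10 was not called. It was 77.9, 65.7 and 61.1 CPM in stroked against 63.7, 64.0 and 79.4 CPM in non-stroked Rag2-/- samples (log2 change -0.02, interval -0.38 to 0.35). In stroked NSG samples it was 94.9, 83.3 and 63.6 CPM against 81.4, 79.8, 60.4 and 69.0 CPM in non-stroked ones (0.15, interval -0.19 to 0.49). The groups overlapped in both strains.

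Bcas1, Olig1 and Olig2 also had lower TF than Imm2 values within stroked WT mice. Bcas1 was 278.3 and 295.1 CPM in the Imm2 and 194.9 and 142.3 CPM in the TF samples. Olig1 was 124.1 and 112.7 CPM against 90.9 and 68.3 CPM, and Olig2 33.8 and 30.1 CPM against 23.7 and 17.0 CPM. Cspg4 went the other way, with both TF samples above both Imm2 samples. In WT-Tacr delayed mice, all TF, Bcas1 ranged from 135.1 to 179.8 CPM with a median of 171.8 CPM, and its log2 change of -0.48 ± 0.21 just passed the threshold (adjusted p = 0.0498). It turned to 0.23 (adjusted p = 0.627) with cohort as a covariate, and in 8 of the 9 fits that left out a sample the call was lost, each sample but non-stroked WT replicate 3 being needed for it.

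**Figure D3:**
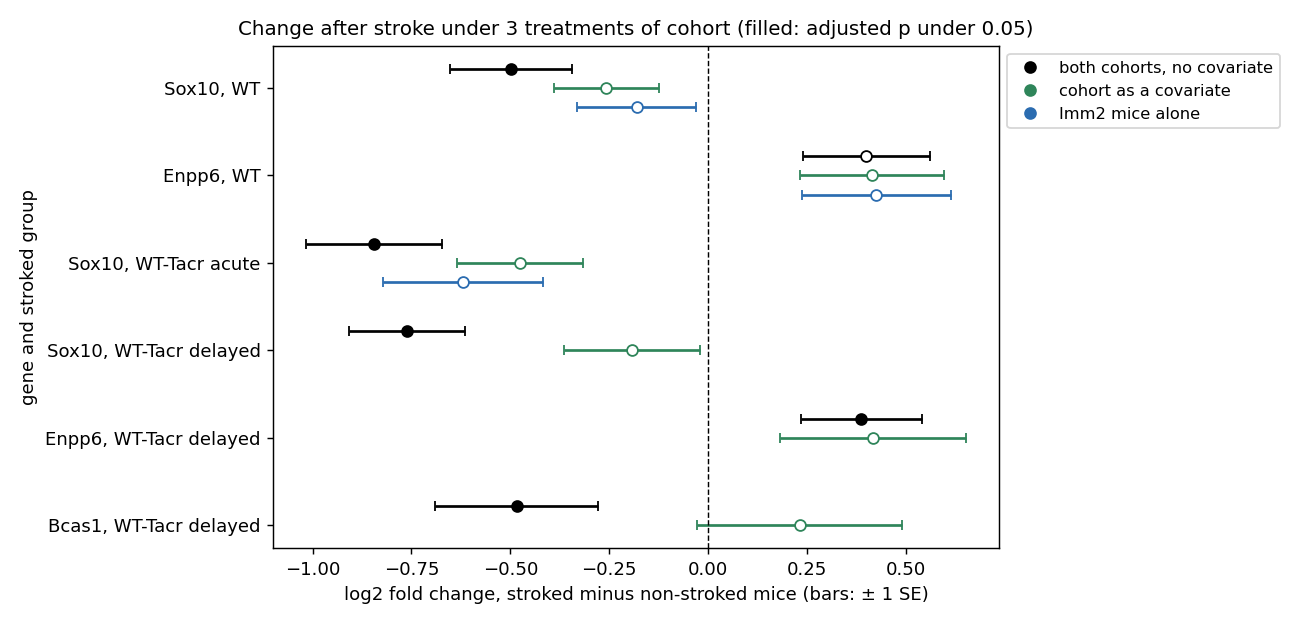
Log2 change after stroke (x axis, ± 1 SE) of Sox10 in the 3 WT groups, Enpp6 in WT and WT-Tacr delayed and Bcas1 in WT-Tacr delayed mice (y axis), with both cohorts and no covariate (black), cohort as a covariate (green) and Imm2 samples alone (blue, where the stroked group has any). Filled points have adjusted p under 0.05; the Sox10 estimates move towards 0 and the Enpp6 estimates shown stay between 0.39 and 0.43.

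Enpp6 was higher in every stroked WT sample than in any non-stroked one, although it missed the threshold. Stroked WT samples stood at 13.9, 14.4, 14.7 and 12.9 CPM, all above the non-stroked range of 9.48 to 11.9 CPM. The log2 change was 0.40 ± 0.16 (adjusted p = 0.0640). It was 0.42 with cohort as a covariate and 0.43 among Imm2 samples alone, neither called, and it was called in the fit of the 2 groups alone (0.39, adjusted p = 0.0158). In WT-Tacr delayed samples Enpp6 was 14.8, 16.9, 11.5, 12.5 and 13.5 CPM, with a called log2 change of 0.39 ± 0.15 (adjusted p = 0.0348) that was lost in 5 of 9 fits with a sample left out: without non-stroked WT replicate 3, 4 or 5 or delayed replicate 1 or 2 (adjusted p at most 0.106). It was also lost with cohort (0.42, adjusted p = 0.281) or Ddx3y (0.24, adjusted p = 0.351) as a covariate. In Rag2-/- mice, where Enpp6 alone of the 8 had an unadjusted p under 0.05 and DESeq2 called 0 of 8, the stroked values of 20.1, 12.7 and 13.5 CPM all exceeded the non-stroked 11.3, 11.5 and 12.01 CPM (0.41 ± 0.18, adjusted p = 0.183). In WT-Tacr acute samples, at 9.79, 7.28 and 12.1 CPM, the change was -0.12 ± 0.17, and in NSG samples, at 14.4, 19.1 and 13.6 CPM, it was -0.12 ± 0.17. By group mean, Enpp6 was highest in non-stroked NSG (17.0 ± 3.04 CPM), followed by stroked NSG (15.7 ± 2.94), stroked Rag2-/- (15.5 ± 4.08), stroked WT (13.96 ± 0.776), WT-Tacr delayed (13.8 ± 2.11), non-stroked Rag2-/- (11.6 ± 0.372), non-stroked WT (10.6 ± 1.05) and WT-Tacr acute mice (9.72 ± 2.40). Neighbours in this order differed by less than the larger of their SDs, except WT-Tacr delayed and non-stroked Rag2-/- mice.

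Gpr17 and Bcas1, the other markers of differentiation in the set, overlapped between stroked and non-stroked WT mice. Gpr17 was 56.9, 57.4, 65.1 and 61.3 CPM after stroke, within the non-stroked range (log2 change -0.05, interval -0.30 to 0.20). In stroked Rag2-/- mice Gpr17 was 65.1, 64.6 and 53.4 CPM, all below the non-stroked 67.2 to 77.0 CPM, with a log2 change of -0.23 that missed the threshold (adjusted p = 0.377). WT-Tacr acute samples were tightly placed at 55.6, 54.4 and 54.6 CPM, just under the lowest non-stroked WT value (-0.18, adjusted p = 0.376).

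In NSG mice the lineage factors Olig1 and Olig2 rose after stroke. Olig2, which specifies the lineage, was 57.6, 50.7 and 39.3 CPM in stroked NSG samples and 34.8, 35.0, 23.2 and 38.8 CPM in non-stroked ones. All stroked values were higher, the lowest by a small margin. The log2 change was 0.58 ± 0.18 (adjusted p = 0.0255). Olig1, its neighbour on chromosome 16, was 185.9, 142.8 and 121.1 CPM against 112.1, 117.1, 83.4 and 116.6 CPM, again without overlap (0.48 ± 0.17, adjusted p = 0.0394). Bcas1 was 448.3, 340.6 and 248.9 CPM against 272.3, 266.1, 168.0 and 235.8 CPM, and its log2 change of 0.55 ± 0.23 was not called (adjusted p = 0.0888). Gpr17, at 83.8, 129.3 and 70.1 CPM, spread on both sides of the non-stroked NSG range (-0.12, interval -0.39 to 0.15).

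These calls rested on few samples. Olig2 lost its call without stroked NSG replicate 1 (adjusted p = 0.181), replicate 2 (0.0592) or non-stroked NSG replicate 3 (0.0908). Olig1 lost it without stroked NSG replicate 1 (0.339) or 2 (0.0551), or non-stroked NSG replicate 1 (0.0561) or 3 (0.126). Without stroked NSG replicate 3, Bcas1 was called (0.73, adjusted p = 0.0331). Ddx3y was present in all 4 non-stroked but in 1 of 3 stroked NSG samples. With its presence as a covariate Olig1 (0.53, adjusted p = 0.0604) and Olig2 (0.60, adjusted p = 0.0535) missed the threshold. This covariate was fitted over all samples, and 0 of 9 TF samples had Ddx3y, so it mixed sex with cohort. The part of sex in the NSG result could not be tested this way. In the fit of the 2 NSG groups alone Olig1 and Olig2 had adjusted p of 0.143 and 0.126. Summed myelin genes overlapped, from 6808 to 10170 CPM (median 7255 CPM) in stroked and from 4721 to 7924 CPM (median 7568 CPM) in non-stroked NSG samples. Their part in the result was not tested.

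**Figure D4:**
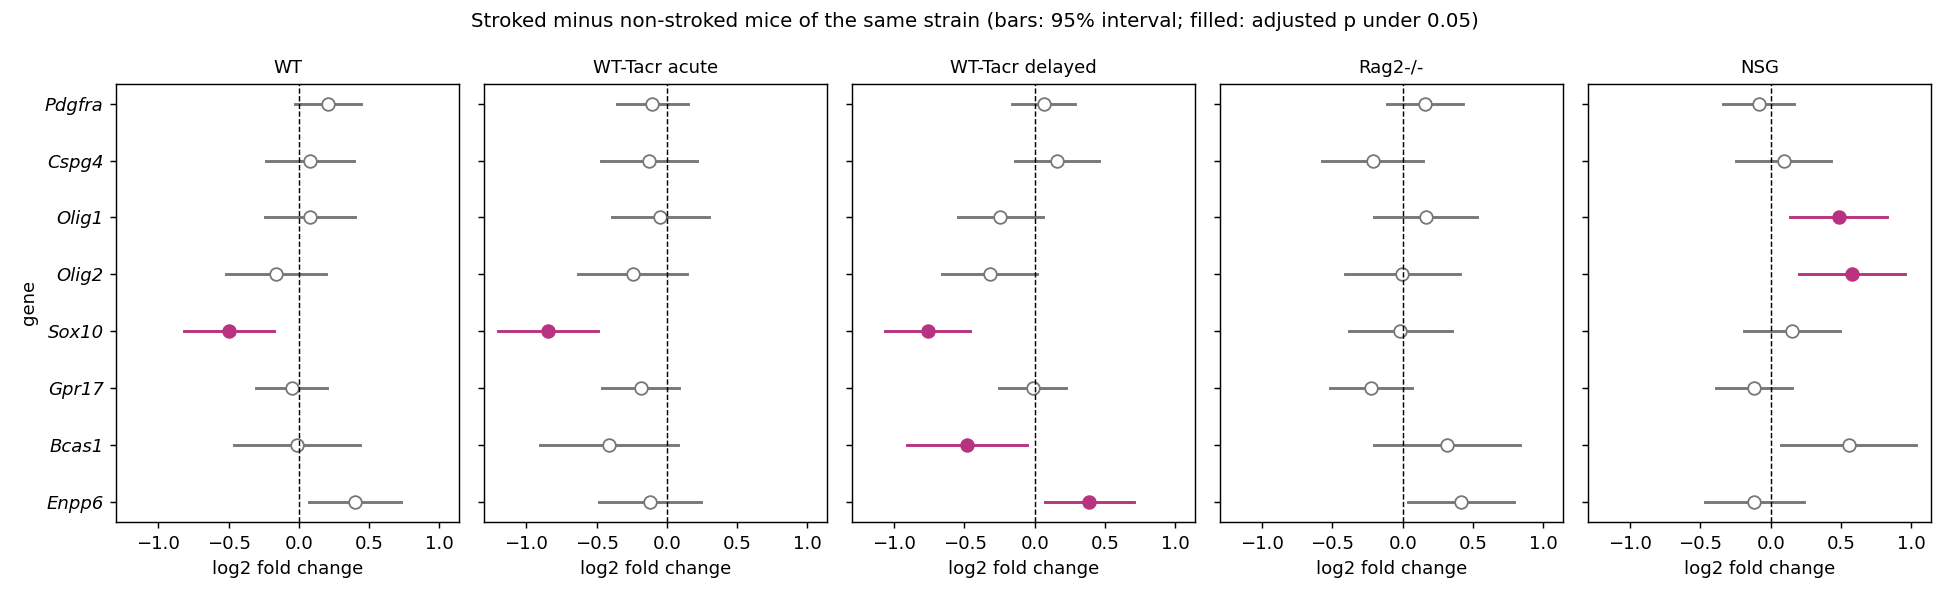
Log2 change (x axis) of the 8 genes (y axis) between stroked and non-stroked samples in 5 panels, 1 for each stroked group. Bars are 95% intervals and filled points adjusted p under 0.05; Sox10 lies left of 0 in the 3 WT panels, which share controls and hold TF samples, and Olig1 and Olig2 lie right of 0 in NSG.

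Whether strains differ in their response was tested directly. The NSG response differed from the WT response in 0 of 8 genes, where 0.0294% of all genes were called, and 3 of 8 had an unadjusted p under 0.05. These were Olig2 (log2 difference in response 0.74, adjusted p = 0.246), Sox10 (0.65, adjusted p = 0.254) and Enpp6 (-0.52, adjusted p = 0.363). This comparison sets NSG mice, all Imm2, against WT mice of which 2 of 4 stroked samples are TF. With cohort as a covariate the differences were 0.56 (adjusted p = 0.484), 0.41 (adjusted p = 0.516) and -0.53 (adjusted p = 0.535), and in Imm2 samples alone 0.44 (adjusted p = 0.882), 0.32 (adjusted p = 0.886) and -0.55 (adjusted p = 0.777). The Rag2-/- response differed from the WT response in 0 of 8 genes, with 0% of all genes called and 0 of 8 at an unadjusted p under 0.05. DESeq2 called 0 of 8 in both comparisons. The widest 95% intervals of these differences spanned 1.32 and 1.37 log2 units, so sizeable differences in response were not detectable with these samples.

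The third question was whether tacrolimus alters the genes in stroked WT mice. Against untreated stroked WT mice, 0 of 8 genes were called in WT-Tacr acute and 0 of 8 in WT-Tacr delayed mice by edgeR, with 0% of all genes called in both comparisons, and 2 of 8 had an unadjusted p under 0.05 in each. DESeq2 called 0 of 8 in either. In the acute comparison these were Enpp6 (-0.52, adjusted p = 0.311) and Pdgfra (-0.31, adjusted p = 0.315), and all 8 log2 differences were below 0. Enpp6 and Gpr17, 2 of 8, did not overlap between acute and untreated samples (6.29% of all genes). In the delayed comparison 0 of 8 were separated (4.23% of all genes). Without acute replicate 3, Enpp6 was called lower than in untreated mice (-0.69, adjusted p = 0.0273), and without stroked WT replicate 4, Olig1 was called lower in delayed than in untreated mice (-0.47, adjusted p = 0.0471). Replicate 4 is a TF sample, and leaving it out sets 5 TF samples against 2 Imm2 and 1 TF samples. With all samples the Olig1 difference was -0.33, and it was -0.07 with cohort as a covariate and -0.005 within TF samples, with no call.

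Between the tacrolimus regimens, Enpp6 was higher in WT-Tacr delayed than in WT-Tacr acute mice (0.51, adjusted p = 0.0364), 1 of 8 genes, where 20.3% of all genes were called. By separation 1 of 8, Cspg4, did not overlap (17.8% of all genes), although it was not called (0.29, adjusted p = 0.202). The Enpp6 call was lost within the TF samples (0.54, adjusted p = 0.172), in the fit of the 2 groups alone (0.52, adjusted p = 0.0900), with cohort (0.52, adjusted p = 0.0683) or Ddx3y (0.46, adjusted p = 0.0762) as a covariate, and in 5 of 8 fits with a sample left out: acute replicate 1 (adjusted p = 0.143) or 2 (0.244), or delayed replicate 1 (0.0575), 2 (0.0819) or 5 (0.0653). Its size stayed at 0.33 or more in all of these.

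Genes that surround the 8 in the lineage were counted for the same comparisons. Of 15 other OPC genes, 3 rose and 3 fell in stroked WT, 0 and 2 in WT-Tacr acute and 5 and 4 in WT-Tacr delayed mice. In stroked Rag2-/- samples 1 rose and 0 fell, while in those of NSG mice 3 rose and 2 fell. These counts stand beside 26.9% of all genes called in WT, 8.54% in WT-Tacr acute, 55.2% in WT-Tacr delayed, 8.23% in Rag2-/- and 21.9% in NSG mice, and the 9 of 15 of WT-Tacr delayed mice are near their background. Matn4 rose in WT (0.79 ± 0.19, adjusted p = 0.00322), Rag2-/- (0.81 ± 0.21, adjusted p = 0.0181) and NSG mice (0.85 ± 0.19, adjusted p = 0.00332). Nkx2-2, a homeobox factor of the lineage, fell in WT (-0.90 ± 0.20, adjusted p = 0.00212) and in WT-Tacr acute mice (-1.53 ± 0.23, adjusted p = 0.000550). Pcdh15, a protocadherin, fell in NSG mice (-0.65 ± 0.19, adjusted p = 0.0148). In stroked WT mice the median log2 change of the 15 genes was -0.05, beside -0.0004 over all genes. The WT groups of these lists hold TF samples, and the part of cohort in their changes was not tested.

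Of 11 other committed and newly formed genes, Tns3, a focal adhesion protein, was the only one called in WT (0.76 ± 0.14, adjusted p = 0.000283) and in Rag2-/- mice (0.67 ± 0.16, adjusted p = 0.00866). In WT-Tacr delayed mice 3 rose and 2 fell, and 0 were called in WT-Tacr acute or NSG mice by edgeR, with 5 and 1 at an unadjusted p under 0.05. Of 14 mature myelin genes, the protease Klk6 was the only one called in WT (1.15 ± 0.34, adjusted p = 0.0148), Rag2-/- (1.90 ± 0.40, adjusted p = 0.00361) and NSG mice (1.29 ± 0.35, adjusted p = 0.0115). In WT-Tacr delayed mice 8 of the 14 were called and in WT-Tacr acute mice 1, with 9 and 4 at an unadjusted p under 0.05. The proliferation list of 6 genes had 0 called by edgeR in WT, Rag2-/- and NSG mice (3, 0 and 1 at an unadjusted p under 0.05) and 4 higher in WT-Tacr delayed mice, led by Cdk1 (1.88 ± 0.44, adjusted p = 0.000910). In WT-Tacr delayed mice the 5 of 11, the 8 of 14 and the 4 of 6 stand beside 55.2% of all genes. The single genes called in WT, Rag2-/- and NSG mice stand beside 26.9%, 8.23% and 21.9%, and that of WT-Tacr acute mice beside 8.54%.

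Ligands that act on OPCs were called in 4 of the 5 stroked groups. Of 10 ligands, 5 rose and 1 fell in stroked WT mice, 4 rose in Rag2-/-, 4 in NSG and 7 in WT-Tacr delayed mice, where 1 fell, and 0 were called in WT-Tacr acute mice by edgeR, with 4 at an unadjusted p under 0.05. Of all genes 26.9% were called in WT, 8.23% in Rag2-/-, 21.9% in NSG, 55.2% in WT-Tacr delayed and 8.54% in WT-Tacr acute mice. In WT mice Cntf rose by 1.70 ± 0.32 (adjusted p = 0.000487), Fgf2 by 0.98 ± 0.20 (adjusted p = 0.00118) and Tgfb1 by 0.95 ± 0.23 (adjusted p = 0.00370), and Shh, the morphogen, changed by -0.62 ± 0.20 (adjusted p = 0.0260), all on the log2 scale. Of the PDGF ligands, Pdgfc rose in WT (0.59 ± 0.15, adjusted p = 0.00629), with values of 0.31 ± 0.18 in stroked Rag2-/- (adjusted p = 0.329) and 0.04 ± 0.16 in stroked NSG mice (adjusted p = 0.884). Pdgfa was not called in WT (-0.04 ± 0.09, adjusted p = 0.804). Of 8 regulators that hold back differentiation, 4 were called after stroke in WT mice. Lgals1 and Hes5, both higher, are described here and the rest are not. The Rag2-/- group had 1 called, the NSG group 2 and the WT-Tacr delayed group 5. Lgals1 was called higher in WT, Rag2-/- and NSG mice (1.26, 1.36 and 2.06). Hes5, a Notch target, rose in WT (0.69 ± 0.24, adjusted p = 0.0364) and fell in NSG mice (-0.87 ± 0.27, adjusted p = 0.0216). For the NSG against the WT response, however, 0 of the 8 regulators were called, with 2 at an unadjusted p under 0.05. In addition, 2 of the 4 stroked WT samples are TF. The 8 regulators summed had a lower median after stroke in WT mice, although the ranges overlapped. Their sum was 666.5 to 788.4 CPM (median 758.7 CPM) without stroke and 522.8 to 676.8 CPM (median 628.7 CPM) after it.

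Finally, the genes were compared for how they vary together among samples of the same group. Log2 CPM with each group's mean removed were correlated over the 29 samples, as a description only, since the samples share cohort, depth and dissection. Olig1 and Olig2 were the most alike (Pearson's r = 0.93), and Sox10 and Bcas1 followed them closely (0.79 to 0.85 among these 4 genes). Pdgfra and Cspg4 formed a looser pair (0.52) and had r between -0.34 and -0.08 with those 4. Enpp6 lay between, with r of 0.48 to 0.52 with the 4 genes, 0.34 with Cspg4 and 0.11 with Pdgfra, and Gpr17 was most like Cspg4 (0.43). The lineage factors and Bcas1 also followed the mean of the 14 myelin genes (0.76 for Olig1, 0.75 for Olig2, 0.73 for Bcas1, 0.60 for Sox10), unlike Pdgfra (-0.22) and Cspg4 (-0.17). Pdgfra (0.53), Cspg4 (0.58) and Gpr17 (0.53) instead followed the mean of the 15 other OPC genes. Gpr17 had a higher value with the 11 other committed and newly formed genes (0.60), and Enpp6 followed these (0.76) and the myelin genes (0.68). Cspg4 had similar or higher values with the fibroblast (0.60), pericyte (0.60) and endothelial lists (0.69). Pdgfra had somewhat lower values with the pericyte (0.45), fibroblast (0.43), endothelial (0.40) and astrocyte lists (0.40), and Gpr17 with the astrocyte list (0.41). The likeness to other OPC genes was thus not particular to that list.

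**Figure D5:**
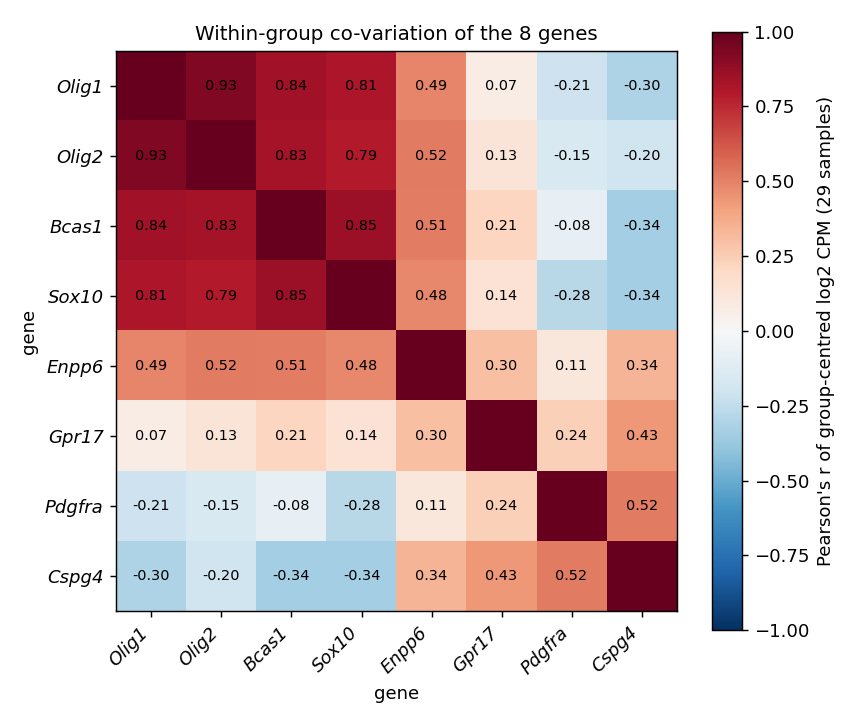
Pearson's r of group-centred log2 CPM over 29 samples for each pair of the 8 genes (both axes), red for positive and blue for negative values. Olig1, Olig2, Bcas1 and Sox10 form a block of r from 0.79 to 0.93, and Pdgfra and Cspg4 are negative with each of them.

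Over all 17031 genes, those most like Olig1, Olig2, Bcas1, Sox10 and Enpp6 by this measure included myelin genes. Those most like Pdgfra, Cspg4 and Gpr17 were on none of the gene lists used here. Bcas1 was closest to Plekhb1 (0.94) and the myelin genes Mobp (0.93) and Mbp (0.93), and Olig1 to Pllp, the myelin protein plasmolipin (0.94), Olig2 (0.93) and Ppp1r14a (0.92). Olig2 was closest to Olig1, Tmem88b (0.88) and Pllp (0.87). Sox10 was closest to Fa2h (0.89), which makes myelin lipids, Nkx2-2 (0.88) and Slain1 (0.86). Enpp6 was closest to the myelin tight junction gene Cldn11 (0.81), Snx33 (0.79) and Prr5l (0.79). Pdgfra was closest to Il17rd (0.81), Traf6 (0.80) and Eya1 (0.79), Cspg4 to Galc (0.87), Itga6 (0.83) and 4930578C19Rik (0.83), and Gpr17 to Dusp19 (0.83), Zdhhc23 (0.82) and Parp1 (0.82).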

How the data were processed

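RNA was extracted from brain tissue of 29 mouse samples, and libraries were made by poly(A) selection with a stranded kit. The authors deposited raw read counts per Ensembl gene, 1 table for each sample. The aligner, counting tool and genome build are not given in the sources used here. Of the gene identifiers, 25635 matched a symbol and 111 did not. Groups came from the GEO labels. Counts were filtered with filterByExpr, scaled by TMM and fitted with edgeR 4.0.16 in R 4.3.3 (quasi-likelihood, 1 mean for each of 8 groups). Each contrast was tested two-sided, with Benjamini-Hochberg adjustment over all genes tested and calls at an adjusted p under 0.05. SEs were taken from the F statistic, and log2 CPM used a prior count of 2. Alternatives covered the normalization, the filter, DESeq2 1.42.0, the cohort, the samples in the fit, the label number as a block and leaving out each sample. Presence of Ddx3y (100 counts or more) as a covariate was added after seeing the data. The genes described are the 8 of the set, at most 3 called genes in each direction from each list, Pdgfa and Pdgfc, and the 3 genes most like each of the 8. The 8 genes and the lists were chosen with earlier results of these data known. The code was tested on simulated data. Titles and file names disagree for 2 WT-Tacr acute samples, and the labels were followed. Motifs were searched in RefSeq promoters.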

Additional observations from a re-analysis of the deposited data

Results flagged for a closer look

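Among the groups of 4 or 5 samples, 2 of 32 gene and group sets held a sample far from the others by Dixon's test, where chance flags about 1 in 20 sets. Olig1 in non-stroked NSG replicate 3 was 83.36 CPM, with the next sample at 112.1 and the highest at 117.1 CPM. Gpr17 in WT-Tacr delayed replicate 5 was 50.84 CPM, with the next sample at 62.81 and the highest at 65.86 CPM.

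Olig2 moved in opposite directions after stroke in 2 groups: every WT-Tacr acute sample lay below every non-stroked WT sample (log2 change -0.2421), and every stroked NSG sample lay above every non-stroked NSG sample (0.5806). The difference between these changes was not tested. The WT-Tacr acute change was not called (adjusted p = 0.416) and that group holds 2 TF samples, where Olig2 was lower than in Imm2 samples of stroked WT mice.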

How the results depend on the processing

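Estimates for the 8 genes were counted only where the main fit had an unadjusted p under 0.05, so estimates near 0 were not among them. Fits that left out 1 sample were not counted either. Of the estimates counted, 180 stayed on their side of the threshold, 27 weakened past it, 7 strengthened past it and 1 reversed. The last was Bcas1 in WT-Tacr delayed mice, at 0.2321 with cohort as a covariate. RLE normalization, both other filters and DESeq2 left the number of the 8 genes called within 1.5 times that reported. Requiring an absolute log2 fold change above 1 left 0 in every comparison.

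In stroked WT mice the 1 called gene became 0 with cohort or Ddx3y as a covariate and in Imm2 samples alone. In WT-Tacr acute mice 1 became 0 with cohort as a covariate and in Imm2 samples alone. In WT-Tacr delayed mice 3 became 0 with cohort as a covariate, 1 with Ddx3y as a covariate and 5 in the fit of these groups alone. In NSG mice 2 became 0 with Ddx3y as a covariate and in the fit of these groups alone. Between the tacrolimus regimens 1 became 0 with cohort or Ddx3y as a covariate, in TF samples alone and in the fit of these groups alone.

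With 1 sample left out in turn, the number of the 8 called ranged from 0 to 2 for stroke in WT, 0 to 1 in WT-Tacr acute, 1 to 2 in WT-Tacr delayed, 0 to 0 in Rag2-/- and 0 to 3 in NSG mice. At rest it ranged from 3 to 3 where NSG mice were set against WT, from 0 to 0 where Rag2-/- mice were, and from 0 to 2 between the immunodeficient strains. It ranged from 0 to 0 for both differences in response and from 0 to 1 for each comparison among stroked WT groups.

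The label numbers did not pair the samples: residual correlations of same-numbered samples ran from -0.2582 to 0.1848. With the number as a replicate block, 0 of 8 genes were called for stroke in WT (0 in the same samples without the block), 0 in Rag2-/- (0) and 1 in NSG mice (0). At rest 2 were called in NSG against WT mice (2), 0 in Rag2-/- against WT mice (0) and 3 between the immunodeficient strains (3). Of all genes, the block left 220 called for stroke in WT (375 without it), 290 in Rag2-/- (660) and 762 in NSG mice (1440), and 859 in NSG (1121) and 36 in Rag2-/- (1) against WT mice at rest.

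The number of all genes called also moved. For stroke in WT it was 4579, with 2096 with cohort and 2834 with Ddx3y as a covariate and 1528 in Imm2 samples. In WT-Tacr acute mice it was 1454, with 52, 204 and 42 under these alternatives, 35 in the fit of these groups alone and 2188 by DESeq2. In WT-Tacr delayed mice it was 9393, with 1533 with cohort and 4420 with Ddx3y as a covariate. In Rag2-/- mice it was 1402, with 2512 with Ddx3y as a covariate and 2455 in the fit of these groups alone. In NSG mice it was 3726, with 2356 and 792. At rest it was 1662 for NSG and WT (2511 in the fit of these groups alone) and 1078 for NSG and Rag2-/- mice (1666 with Ddx3y as a covariate). Between the tacrolimus regimens it was 3465, with 1583 with cohort and 2295 with Ddx3y as a covariate, and 0 in TF samples or these groups alone. DESeq2 called 136 genes for the NSG against the WT response (5 by edgeR), 199 for delayed tacrolimus and 2 for acute tacrolimus against untreated stroke (0 by edgeR). With 1 sample left out in turn, the count over all genes ranged from 2690 to 5144 for stroke in WT, 37 to 3654 in WT-Tacr acute, 8301 to 9018 in WT-Tacr delayed, 495 to 1294 in Rag2-/- and 1885 to 4737 in NSG mice. At rest it ranged from 1144 to 1467 for NSG and 1 to 2 for Rag2-/- against WT, and from 659 to 1054 between the immunodeficient strains. It ranged from 0 to 255 for the NSG response, 0 to 0 for the Rag2-/- response, 0 to 1437 for acute and 0 to 1053 for delayed tacrolimus against untreated stroke, and 0 to 5793 between the regimens. The shares of all genes called in the report move with these counts.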
